A study of Homo sapiens with 6 samples.

Results

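Ca9-22 is an established cell line of oral squamous cell carcinoma (OSCC), and its expression profile was set against that of 2 other OSCC lines, HSC-3 and KON. Ca9-22 gave 2 of the 6 one-color arrays of the series, 1 after transfection with control siRNA (siCtrl) and 1 after transfection with siDLEU1-2, an siRNA against the long noncoding RNA DLEU1. HSC-3 and KON gave 2 arrays each, with the same pair of siRNAs. All cells were collected 72 h after transfection by lipofection, and 100 ng of total RNA per array was labeled with Cy3. The arrays were chosen by the cell line that the labels name, and no measured value was used to choose them. No array of untransfected cells or of noncancerous epithelium is included, so every level of Ca9-22 below is that of a transfected tumor line set against the other transfected tumor lines.

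Oral squamous epithelium is built from basal cells, which make keratin 5 and keratin 14 and rest on a laminin-rich basement membrane, and from cells above them that switch to differentiation genes. Carcinoma lines derived from it keep parts of this program and differ in how much they express mesenchymal genes, inflammatory cytokines, positional HOX genes, detoxifying enzymes and germline genes that tumors turn on. Lines can thus be told apart by the genes that 1 of them has on or off.

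Levels are given throughout as the log2 of the processed signal minus the 75th percentile of that array, so that a level of 0 is the 75th percentile probe, and pairs of values are siCtrl followed by siDLEU1-2. On each array the signal stood well above background at 43.0% to 45.7% of the 50599 probes. The dimmest probes well above background lay between -3.85 and -3.29, and levels below that have no order. Where only some arrays of a group detected a gene, the difference of the fit takes in such levels and is not a measured fold. DLEU1 itself measured 1.56 and -1.88 in Ca9-22, 1.39 and -2.71 in HSC-3, and 2.15 and -1.48 in KON, so it was lower with siDLEU1-2 in every line, and Ca9-22 did not stand apart from the others for it. The pair of Ca9-22 arrays correlated at r = 0.96 over the 24517 probes kept, and Ca9-22 correlated with the same-siRNA arrays of HSC-3 and KON at 0.86 to 0.87, close to the 0.87 to 0.88 between HSC-3 and KON. Probes of an array are not independent, so these r are descriptions. Over 2-fold differences separated the Ca9-22 arrays from each other at 15.1% of the probes, and from the same-siRNA arrays of the other lines at 34.6% to 37.4%. The Ca9-22 arrays occupied another column of the slide than the 4 remaining arrays, so slide column and cell line cannot be told apart.

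The first question was which genes set Ca9-22 apart from both other lines regardless of the siRNA. A probe was called where limma, with siRNA as a term, gave an adjusted p under 0.05 for Ca9-22 against the mean of HSC-3 and KON. Of the 24517 probes, 476 (1.94%) were called higher in Ca9-22 and 438 (1.79%) lower. All 914 were also over 2-fold from HSC-3 and from KON on each siRNA. Without a test, 1273 probes (5.19%) were over 2-fold higher than both lines on both siRNAs and 1349 (5.5%) over 2-fold lower. Under normexp background correction, which shrinks differences of dim probes, these became 557 and 656, and the counts over 2-fold in the gene lists below are those without it. HSC-3 and KON stood apart from the remaining lines to a like extent, with 2528 and 2417 probes over 2-fold against 2622 for Ca9-22. The calls gather where Ca9-22 differed from HSC-3 and from KON by about the same amount, since any difference between HSC-3 and KON counts as error in this fit. The median difference over all probes was -0.10.

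**Figure D1:**
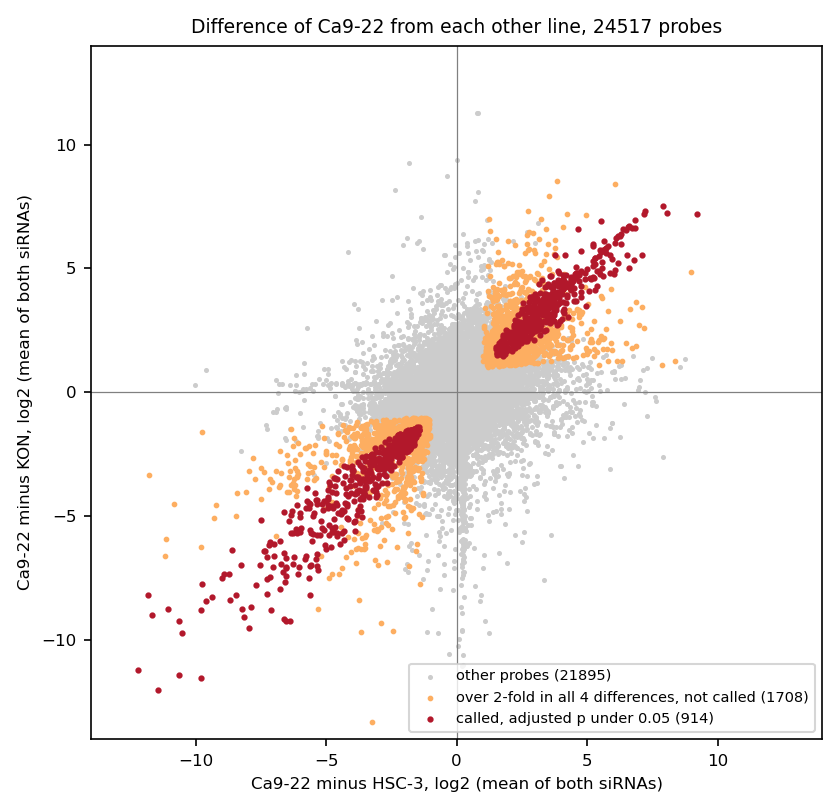
Each point is 1 of 24517 probes. The horizontal axis is the difference of Ca9-22 from HSC-3 and the vertical axis that from KON, both in log2 units and averaged over the 2 siRNAs. The 914 called probes (red) lie along the diagonal, and the probes over 2-fold in all 4 differences that were not called (orange) lie on both sides of it.

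Many of these differences ran between detected and not detected. Of the probes over 2-fold higher in Ca9-22, 403 were well above background on no array of HSC-3 or KON, and of those over 2-fold lower, 547 were well above background on neither Ca9-22 array. In all, 619 of the 914 called probes were dim on some array. With the 18094 probes well above background on all 6 arrays alone, 30 were called higher and 45 lower. The p-values measure the spread between these 6 arrays only. With the cell line as a random block (correlation 0.77), 10 probes were called higher and 20 lower, and with the mean of each line (1 line against 2) none was called by limma, at 761 higher and 690 lower with an unadjusted p under 0.05. Leaving out either Ca9-22 array ended all calls, and leaving out any other array left 125 to 210 higher and 93 to 163 lower. Centered on the 75th percentile of probes detected on all arrays, the split was 569 higher and 342 lower, and the median difference moved from -0.10 to 0.09.

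The squamous identity of Ca9-22 was checked on 15 markers, all of which were well above background on both Ca9-22 arrays except TP63, the master transcription factor of stratified epithelia, which was so on 1. KRT5, the basal keratin, measured 5.83 and 3.94 in Ca9-22, 7.72 and 6.40 in HSC-3, and 5.94 and 5.74 in KON. SFN, the epithelial 14-3-3 protein, measured 8.20 and 7.48 in Ca9-22, 9.14 and 8.46 in HSC-3, and 7.92 and 6.88 in KON. The adhesion molecules CDH1 (3.33 and 6.04) and EPCAM (5.53 and 6.17) and the desmosomal gene DSP (5.81 and 5.13) were bright in every line, and their differences of -0.28, 0.08 and -0.07 were not called (adjusted p = 0.558, 0.943 and 0.974). Markers of other cell types were mostly not detected. PDGFRA, PDGFRB, COL1A2, COL3A1, THY1 and LUM (fibroblasts), KDR and CLDN5 (endothelium), MS4A1 (B cells) and SYP (neuroendocrine cells) were well above background on 0 of the 6 arrays. Of 9 fibroblast, 6 endothelial and 9 leukocyte markers on the array, 2, 2 and 6 were kept. COL1A1, a collagen chain that fibroblasts make in bulk, was detected on all 6 arrays at -0.34 and 0.62 in Ca9-22, -0.65 and 1.43 in HSC-3, and -0.30 and 1.02 in KON, with no line apart. CD14, CSF1R and CD68 of the myeloid lineage were also detected on all 6 arrays. CD68, a lysosomal protein of macrophages that other cells also make, was called lower at -1.33 and -2.38 in Ca9-22, 1.68 and 0.19 in HSC-3, and 2.26 and 0.62 in KON. The part of other cell types in these levels was not tested.

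The widest differences were genes bright in HSC-3 and KON and not detected in Ca9-22. HTATIP2, an oxidoreductase known as a metastasis suppressor, measured 5.65 and 6.07 in HSC-3 and 6.62 and 6.27 in KON but -5.65 and -5.50 in Ca9-22, where it was not well above background. It was at least 734-fold lower in Ca9-22 (adjusted p = 0.00482), a bound set by the detection floor. IGFBP7, a secreted protein that binds insulin-like growth factors, measured 7.32 and 7.11 in HSC-3, 6.35 and 6.12 in KON, against -5.43 and -4.55 in Ca9-22, at least 1091-fold lower (adjusted p = 0.00543). For both genes the Ca9-22 arrays were below the floor and the 4 others were among the bright probes of their arrays. FSTL1, a secreted follistatin-like glycoprotein, measured 5.77 and 6.81 in HSC-3, 5.38 and 5.53 in KON, against -4.29 and -4.19 in Ca9-22, at least 605-fold lower (adjusted p = 0.00550). C19orf63, a subunit of the endoplasmic reticulum membrane complex also named EMC10, was at least 460-fold lower, THBD (thrombomodulin, a cofactor that restrains clotting) at least 417-fold and STOM (the membrane protein stomatin) at least 289-fold. Further called genes whose called probe neither Ca9-22 array detected were CXCL1 (whose second probe was detected on 1 Ca9-22 array and was not called), ACOT1 (an acyl-CoA thioesterase with a near-identical neighbor, ACOT2) and CTSH (the protease cathepsin H), with bounds of 267-, 185- and 180-fold.

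HSPB1, which encodes the small heat shock protein HSP27, was detected on all arrays by 2 of its 3 probes and was called lower in Ca9-22. It measured -0.42 and -0.61 in Ca9-22, 7.83 and 8.47 in HSC-3, and 7.76 and 7.98 in KON, and the difference (± SE) was -8.52 ± 0.30, adjusted p = 0.00482. The 3 HSPB1 probes differed by -8.52, -8.32 and -5.25, all 3 called, and HSPB1 was among the genes still called on the probes detected on all 6 arrays. Low levels were also measured for PXDN (peroxidasin, which crosslinks collagen IV of basement membranes) and CMTM3, each called lower and detected on 1 of the 2 Ca9-22 arrays. Their fitted differences of -9.01 and -8.60 became -6.46 and -6.75 under normexp. KRT14, the partner of keratin 5, depended on the probe. One probe measured -2.95 and -3.82 in Ca9-22, 7.75 and 4.98 in HSC-3, and 4.90 and 3.83 in KON (-8.75 ± 0.92, adjusted p = 0.0182), a second differed by -5.18 (adjusted p = 0.0599), and the brightest measured 3.59 and 5.05 in Ca9-22, 7.54 and 6.40 in HSC-3, and 5.73 and 5.42 in KON (-1.95 ± 0.79, adjusted p = 0.246). The KRT14 probes thus disagree, and keratins of this type share sequence.

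**Figure D2:**
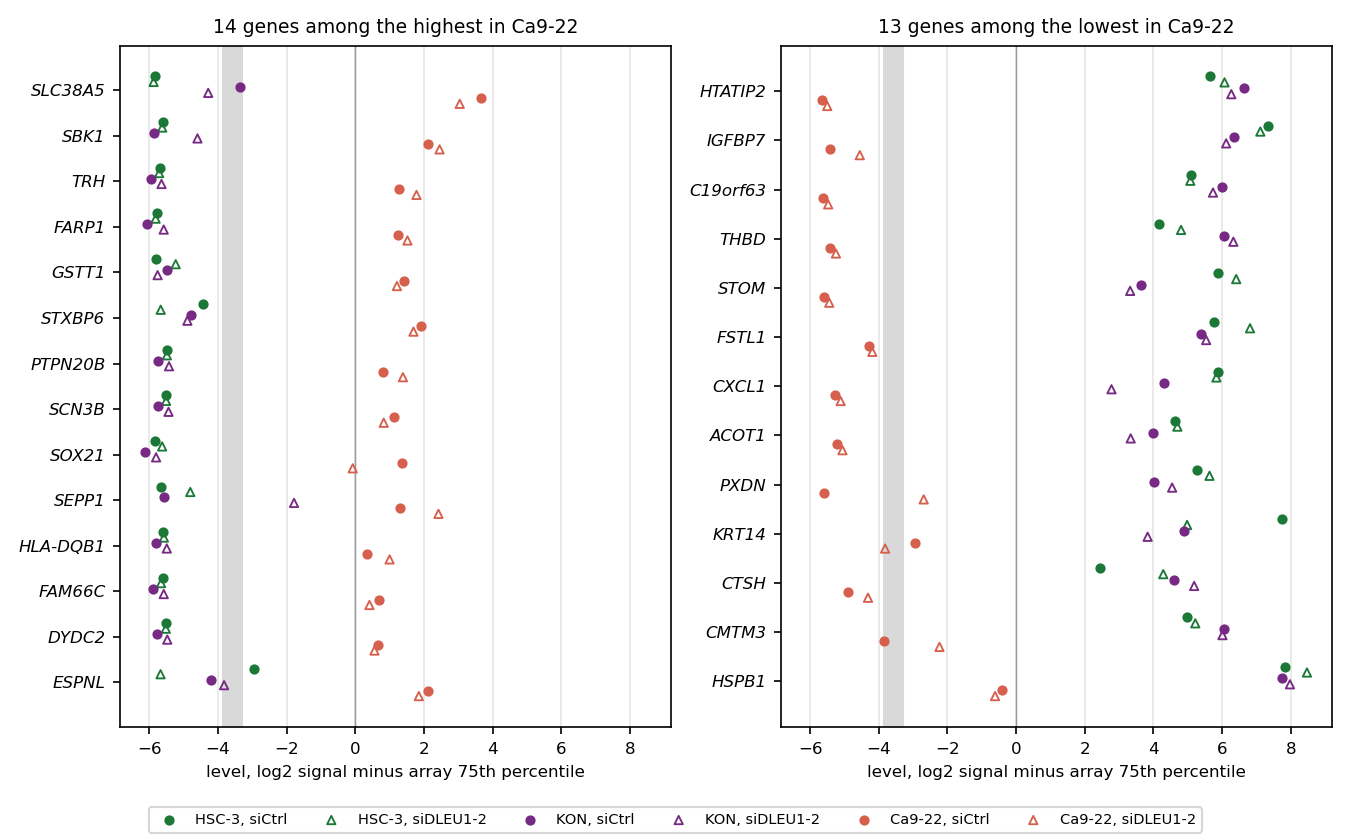
Levels of 14 genes among those with the largest called difference higher in Ca9-22 and 13 among those lower, 1 point per array, in log2 signal minus the 75th percentile of the array. Colors give the line, filled circles siCtrl and open triangles siDLEU1-2, and the gray band spans the detection floors of the arrays (-3.85 to -3.29). In both panels the 2 Ca9-22 points lie on 1 side of all 4 points of HSC-3 and KON.

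The promoters of 3 of these genes are shown because their transcripts were bright in HSC-3 and KON and far dimmer in Ca9-22. They are the 250 bases before the gene start from RefSeq (GRCh38.p14), 5′ to 3′ on the gene's strand, with every CG dinucleotide, the site at which mammalian DNA can be methylated, in capitals.
HTATIP2 promoter (chr11:20363464-20363713, + strand, 15 CG): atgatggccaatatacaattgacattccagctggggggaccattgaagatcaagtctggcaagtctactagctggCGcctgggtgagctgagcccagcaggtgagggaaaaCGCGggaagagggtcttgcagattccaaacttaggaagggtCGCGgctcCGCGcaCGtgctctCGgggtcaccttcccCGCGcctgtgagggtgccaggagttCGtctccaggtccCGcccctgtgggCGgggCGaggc
FSTL1 promoter (chr3:120450993-120451242, - strand, 24 CG): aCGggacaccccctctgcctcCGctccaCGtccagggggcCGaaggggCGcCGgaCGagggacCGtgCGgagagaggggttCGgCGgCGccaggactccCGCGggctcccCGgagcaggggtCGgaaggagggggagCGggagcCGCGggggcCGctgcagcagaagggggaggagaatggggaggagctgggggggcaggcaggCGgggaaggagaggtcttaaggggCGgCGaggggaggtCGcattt
HSPB1 promoter (chr7:76302423-76302672, + strand, 19 CG): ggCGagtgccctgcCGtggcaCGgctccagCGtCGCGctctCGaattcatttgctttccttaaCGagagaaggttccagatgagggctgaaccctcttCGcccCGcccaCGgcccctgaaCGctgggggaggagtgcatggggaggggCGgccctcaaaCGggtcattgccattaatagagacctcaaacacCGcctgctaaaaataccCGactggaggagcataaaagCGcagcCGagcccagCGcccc
Methylation was not measured on these arrays. CG was counted over 300 bases (250 before to 50 after the start) for all genes with a RefSeq promoter. The median was 25 CG over 9946 of the 18450 genes kept, and 80% held 15 or more. Among the 120 of 194 genes called lower that neither Ca9-22 array but all 4 others detected, the median was 24 and 75% held 15 or more. Among the 95 of 254 genes called higher that both Ca9-22 arrays and no other detected, the median was 18 and 60% held 15 or more. These counts are a description with no test, and genes without a RefSeq promoter in the table are not in them.

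The genes highest in Ca9-22 came from varied families. SLC38A5, a neutral amino acid transporter, measured 3.67 and 3.04 in Ca9-22, -5.84 and -5.87 in HSC-3, and -3.37 and -4.28 in KON, and was well above background on 1 array of the other lines. Its call had an adjusted p of 0.0179, and since 3 of those 4 arrays did not detect it the size of the difference was not measured (8.20 in the fit, 5.23 under normexp background correction). SBK1, a protein kinase, measured 2.12 and 2.46 in Ca9-22 and was detected on no other array, at least 60.9-fold higher (adjusted p = 0.00648). TRH, the precursor of thyrotropin-releasing hormone, measured 1.27 and 1.78 in Ca9-22 and was not detected elsewhere, at least 35.9-fold higher (adjusted p = 0.00482). The same pattern of detection in Ca9-22 alone held for FARP1 (a guanine nucleotide exchange factor, at least 32.3-fold), GSTT1 (glutathione transferase theta, at least 31.1-fold), STXBP6 (a syntaxin-binding protein of exocytosis, at least 43.5-fold), SCN3B (a sodium channel beta subunit, at least 24.4-fold), DYDC2 (at least 19-fold) and SOX21 (a transcription factor of the SOX family, at least 19.5-fold). PTPN20B and FAM66C showed it too (at least 26.6- and 18.3-fold), but both belong to near-identical copies that the probe may not separate. SEPP1 (selenoprotein P) and ESPNL (an espin-like protein) were called higher (adjusted p = 0.0396 and 0.0218), and each was detected on 1 of the 4 other arrays. Their fitted differences of 6.32 and 6.15 became 3.47 and 3.55 under normexp.

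Basal squamous genes were detected in Ca9-22, and 2 were called lower. In this list, 0 of the 20 members kept (0%) were called higher and 2 (10%) lower, and the median difference was -0.85 against -0.10 over all genes, of which 361 of 18450 (1.96%) were called higher and 326 (1.77%) lower. Over 2-fold higher or lower than both other lines on both siRNAs, written as throughout, were 5.28% and 5.38% of all genes. The called members were LAMA3, the alpha chain of laminin-332 (2.38 and 3.51 in Ca9-22, 5.13 and 6.01 in HSC-3, and 5.73 and 5.29 in KON, difference -2.59 ± 0.40, adjusted p = 0.0458), and PKP1, a desmosomal plakophilin (-1.19 and -2.55 in Ca9-22, 0.32 and -1.05 in HSC-3, and 0.49 and -1.25 in KON, difference -1.50 ± 0.24, adjusted p = 0.0497). The second LAMA3 probe differed by -0.58 (adjusted p = 0.327). For PKP1 the levels overlap between lines when the siRNAs are mixed, and differ by line within each siRNA. LAMB3, the beta chain, was not called, at 6.02 and 6.95 in Ca9-22 (-0.92 ± 0.33, adjusted p = 0.199). SOX2, a transcription factor of basal and foregut epithelium, measured 5.71 and 4.59 in Ca9-22, -1.03 and 2.89 in HSC-3, and 1.53 and 2.44 in KON. It was over 2-fold higher than both lines on both siRNAs but not called (3.69 ± 1.11, adjusted p = 0.153), and HSC-3 ranged from -1.03 to 2.89. SOX2-OT, the long noncoding RNA that overlaps SOX2, was called higher and was detected in Ca9-22 alone (-2.03 and -1.82, at least 3.28-fold).

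The KRT6 keratins were called lower in Ca9-22 and a hair keratin higher. KRT6A, which keratinocytes make in injured or hyperproliferative epithelium, measured 2.89 and 1.70 in Ca9-22, 6.01 and 4.58 in HSC-3, and 6.06 and 4.67 in KON, with a difference of -3.03 ± 0.23, adjusted p = 0.00941. KRT6C measured 0.20 and -0.98 in Ca9-22, 3.24 and 1.84 in HSC-3, and 3.43 and 1.95 in KON (-3.01 ± 0.24, adjusted p = 0.0100), and KRT6B was not detected in Ca9-22 and at least 17.6-fold lower (adjusted p = 0.0159). On each siRNA all 3 were lowest in Ca9-22, but these paralogs are nearly identical, so their probes are not independent. KRT81, a keratin of the hair cortex, measured 7.78 and 8.81 in Ca9-22, 4.73 and 5.61 in HSC-3, and 4.90 and 5.91 in KON, and both Ca9-22 arrays were above all 4 others (3.01 ± 0.25, adjusted p = 0.0105). KRT16, the usual partner of keratin 6, differed by -0.74 (adjusted p = 0.547). In the list of 7 kept, 1 (14.3%) was called higher and 3 (42.9%) lower, against 1.96% and 1.77% of all genes called. Its median was -0.74, and -0.49 under normexp. Among simple epithelial keratins, 0 of 6 were called in either direction, against the same shares of all genes (median -0.06). KRT18 alone (16.7%) was over 2-fold lower throughout, against 5.38% of all genes (6.35 and 7.54 in Ca9-22, 7.93 and 9.50 in HSC-3, and 7.47 and 8.92 in KON, -1.51 ± 0.31, adjusted p = 0.0782).

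Differentiation genes held calls in both directions. Of the squamous differentiation and cornified envelope list, 3 of the 39 members kept (7.69%) were called higher and 1 (2.56%) lower, against 1.96% and 1.77% of all genes called, and the median difference was 0.03. In it 4 (10.3%) were over 2-fold higher and 6 (15.4%) over 2-fold lower throughout, against 5.28% and 5.38% of all genes. KRTDAP (keratinocyte differentiation-associated protein), SBSN (suprabasin) and SPRR3 (a small proline-rich envelope precursor) were detected on both Ca9-22 arrays and on no other. Their Ca9-22 levels were -1.41 and -2.03, -2.39 and -1.55 and -2.34 and -1.01, at least 3.78-, 3.18- and 3.90-fold higher (adjusted p = 0.0159, 0.0367 and 0.0469). These levels are not far above the floor, and all 3 calls were lost under normexp background correction. SCEL, the envelope precursor sciellin, was called lower (-3.31 and -0.82 in Ca9-22, 1.46 and 4.09 in HSC-3, and 0.83 and 2.54 in KON, -4.29 ± 0.52, adjusted p = 0.0269). The calprotectin genes S100A8 and S100A9 and the related S100A7 were not detected in Ca9-22 and were at least 65.5-, 59.7- and 16.8-fold lower. They were not called (adjusted p = 0.282, 0.181 and 0.379), and HSC-3 was far above KON, with S100A8 at 7.78 and 6.01 in HSC-3 and 0.15 and -3.27 in KON. Among 43 genes of epithelial adhesion, 0 were called higher and 1 (2.33%) lower, the latter near the 1.77% of all genes called lower, and the list median was -0.16. The call was CLDN1, a claudin of tight junctions, at -2.31 and -1.54 in Ca9-22, 3.97 and 4.38 in HSC-3, and 3.17 and 2.05 in KON (-5.32 ± 0.77, adjusted p = 0.0394). GJB2 (connexin 26) and CD24 were over 2-fold lower throughout and not called (-4.98 ± 1.07, adjusted p = 0.0835 and -2.84 ± 0.47, adjusted p = 0.0523).

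**Figure D3:**
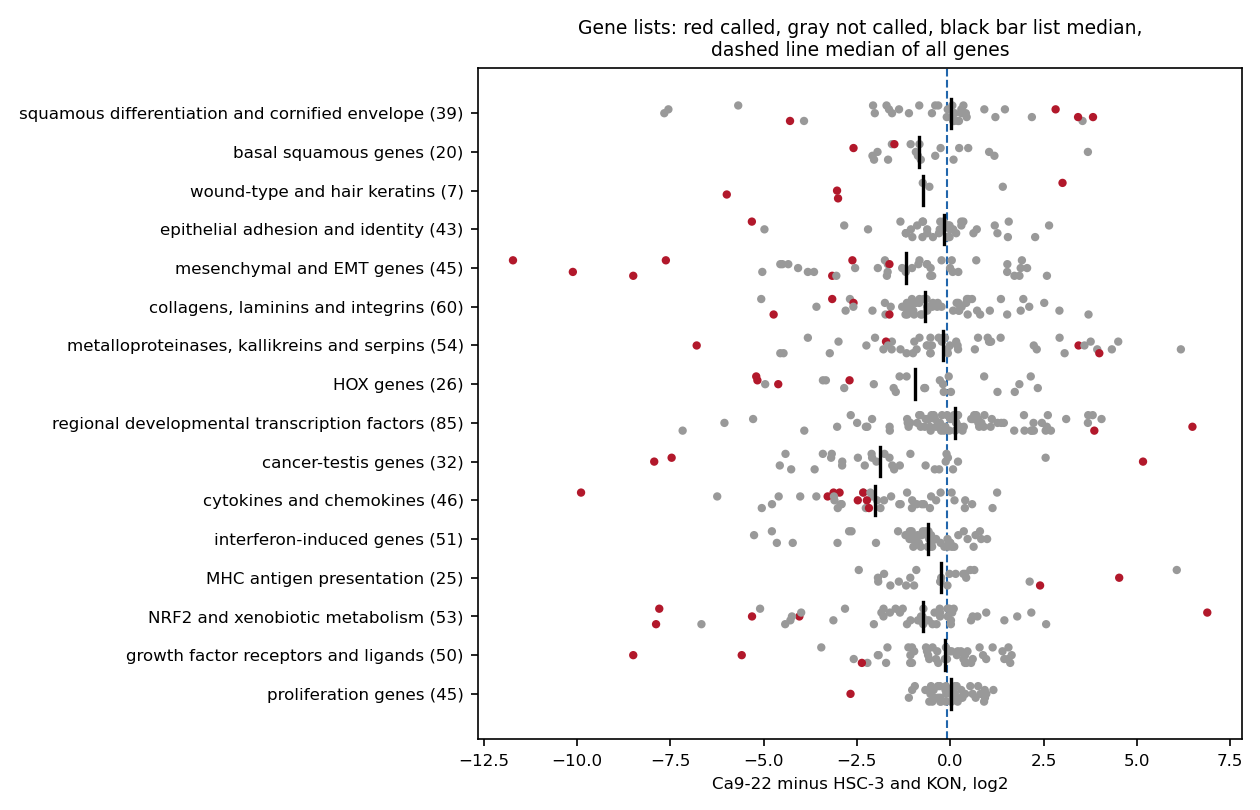
Difference of Ca9-22 from the mean of HSC-3 and KON in log2 units for the genes of 16 lists (number of genes kept in parentheses), 1 point per gene. Called genes are red and others gray, black bars are list medians, and the dashed line is the median of all genes (-0.10). The medians of the cytokine (-2.03), cancer-testis (-1.87) and mesenchymal (-1.19) lists lie farthest to the left, and those of the proliferation and differentiation lists (both 0.03) near 0, where the sign depends on the scaling of the arrays.

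Several mesenchymal and matrix genes were called lower in Ca9-22 and none higher. In the mesenchymal and EMT list, 0 of the 45 members kept (0%) were called higher and 7 (15.6%) lower, against 1.96% and 1.77% of all genes called. In it 2 (4.44%) were over 2-fold higher and 15 (33.3%) over 2-fold lower throughout, against 5.28% and 5.38% of all genes, and the median difference was -1.19. Besides IGFBP7 and FSTL1, the calls included PLAU, the urokinase plasminogen activator, which measured 0.20 and 1.30 in Ca9-22, 8.99 and 9.06 in HSC-3, and 7.72 and 7.72 in KON. PLAU was thus among the brightest probes of HSC-3 and KON and near the 75th percentile in Ca9-22 (-7.62 ± 0.61, adjusted p = 0.00988). IGFBP3, the main serum carrier of insulin-like growth factors, was not detected in Ca9-22 and at least 86.2-fold lower (adjusted p = 0.0479), while it ranged from -0.62 to 6.22 on the other arrays. TNC, the matrix glycoprotein tenascin-C, measured -0.98 and -1.71 in Ca9-22, 1.66 and 1.22 in HSC-3, and 1.63 and 0.59 in KON (-2.62 ± 0.29, adjusted p = 0.0200). LAMB1 (-1.63) and COL6A2 (not detected in Ca9-22, at least 3.24-fold lower) were the remaining calls, and the LAMB1 call rests on 1 of 2 probes, the other differing by 0.03. LOX (lysyl oxidase) and MMP2 (gelatinase A) were not detected in Ca9-22 and at least 7.69- and 6.52-fold lower without being called (adjusted p = 0.0810 and 0.144). INHBA (activin A) was over 2-fold lower throughout without being called (-4.50), and DKK1 and COL5A2 over 2-fold higher (1.92 and 1.89). FAP, a protease of activated fibroblasts detected on the 4 other arrays, was not detected in Ca9-22 and at least 5.24-fold lower, without a call (adjusted p = 0.227).

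Among collagens, laminins and integrins, 0 of the 60 members kept (0%) were called higher and 4 (6.67%) lower, against 1.96% and 1.77% of all genes called. The median was -0.67, and -0.40 under normexp. Of them 4 (6.67%) were over 2-fold higher and 7 (11.7%) over 2-fold lower throughout, against 5.28% and 5.38% of all genes. COL16A1, a fibril-associated collagen, measured -1.40 and -0.81 in Ca9-22, 3.89 and 4.06 in HSC-3, and 2.95 and 3.63 in KON (-4.73 ± 0.37, adjusted p = 0.00941). Its Ca9-22 arrays lay below all 4 others, and its second probe differed by -1.57. Of proteases and their inhibitors, 2 of the 54 members kept (3.7%) were called higher and 2 (3.7%) lower, against the same shares of all genes, with a median of -0.20, and 9 (16.7%) were over 2-fold higher and 6 (11.1%) over 2-fold lower throughout. SERPINB2, the plasminogen activator inhibitor PAI-2, was not detected in Ca9-22 and measured 0.88 and 1.71 in HSC-3 and 1.96 and -0.12 in KON, at least 22.2-fold lower (adjusted p = 0.0154). SERPINI1 (neuroserpin, an inhibitor of tissue plasminogen activator) and ADAMTS4 (an aggrecanase) were detected in Ca9-22 alone, at -1.27 and -1.69 and -1.91 and -1.84. The matrix metalloproteinases clustered at 11q22 included genes over 2-fold higher in Ca9-22 that were not called. MMP10 (stromelysin 2) measured 3.62 and 1.23 in Ca9-22, -1.20 and -0.80 in HSC-3, and -2.82 and -3.49 in KON (4.50 ± 1.04, adjusted p = 0.0946). MMP12 (macrophage elastase) was detected on both Ca9-22 arrays (1.95 and 4.07) and 1 of the 4 others, and MMP13 (collagenase 3) differed by 3.07, whereas MMP7 (matrilysin) of the same cluster was not detected in Ca9-22 and at least 4.09-fold lower. The adjusted p of these were 0.184, 0.0716 and 0.139.

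HOX genes, which record position along the body axis, were called lower in a block of the HOXA cluster. Of the list, 0 of the 26 members kept (0%) were called higher and 4 (15.4%) lower, against 1.96% and 1.77% of all genes called. In it 2 (7.69%) were over 2-fold higher and 7 (26.9%) over 2-fold lower throughout, against 5.28% and 5.38% of all genes. The median was -0.93, and -0.45 under normexp. HOXA4 measured -5.41 and -5.23 in Ca9-22, -0.50 and -0.60 in HSC-3, and -0.21 and 0.83 in KON. HOXA5 measured -4.26 and -5.05 in Ca9-22, 0.19 and -0.07 in HSC-3, and 0.85 and 1.1 in KON. HOXA6 measured -5.29 and -5.10 in Ca9-22, -0.16 and -1.42 in HSC-3, and -0.71 and -0.04 in KON. These 3 neighbors were detected on all 4 other arrays and on neither Ca9-22 array, at least 9.50-, 14.8- and 6.88-fold lower (adjusted p = 0.0127, 0.0131 and 0.0183). HOXA9 and HOXA10, farther along the same cluster, were detected on all arrays, from 0.63 to 1.15 and from 0.87 to 1.12, with differences of -0.17 and -0.04. HOXA3 differed by -1.46 (adjusted p = 0.0990), and HOXA11, dim in all lines and detected on 3 of the 4 other arrays, was called lower (at least 1.30-fold). The HOXB cluster held values in both directions without a call. HOXB5 was not detected in Ca9-22 (at least 5.08-fold lower) and HOXB6 differed by -4.96. HOXB8 was detected in Ca9-22 alone (at least 1.77-fold higher) and HOXB9 differed by 1.73, with adjusted p of 0.0639, 0.0830, 0.12 and 0.0810. HOXB9 measured 2.32 and 2.23 in Ca9-22, 0.80 and 0.96 in HSC-3, and -0.03 and 0.44 in KON, so that both Ca9-22 arrays were above all others.

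Of other developmental transcription factors, 2 of the 85 members kept (2.35%) were called higher and 0 (0%) lower, near the 1.96% and 1.77% of all genes called (median 0.14). Of them 10 (11.8%) were over 2-fold higher and 5 (5.88%) over 2-fold lower throughout, against 5.28% and 5.38% of all genes. The calls were SOX21 (1.37 and -0.07 in Ca9-22) and TBX4, a limb and lung T-box factor (-0.86 and -2.74), neither of which was detected in HSC-3 or KON. LHX6 and DLX6, factors of the first pharyngeal arch, were detected on both Ca9-22 arrays and on 1 and 2 of the 4 others, and were not called (adjusted p = 0.113 and 0.295). The Iroquois genes IRX1 and IRX4, neighbors on chromosome 5, were at least 9.09-fold lower (IRX1, not detected in Ca9-22) and differed by -7.17 (IRX4), and FOXQ1 differed by -6.05. None of these 3 was called (adjusted p = 0.165, 0.106 and 0.0599). For IRX4 all lines stood apart, at -3.46 and -2.36 in Ca9-22, 0.85 and 3.45 in KON and 6.37 and 6.37 in HSC-3.

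**Figure D4:**
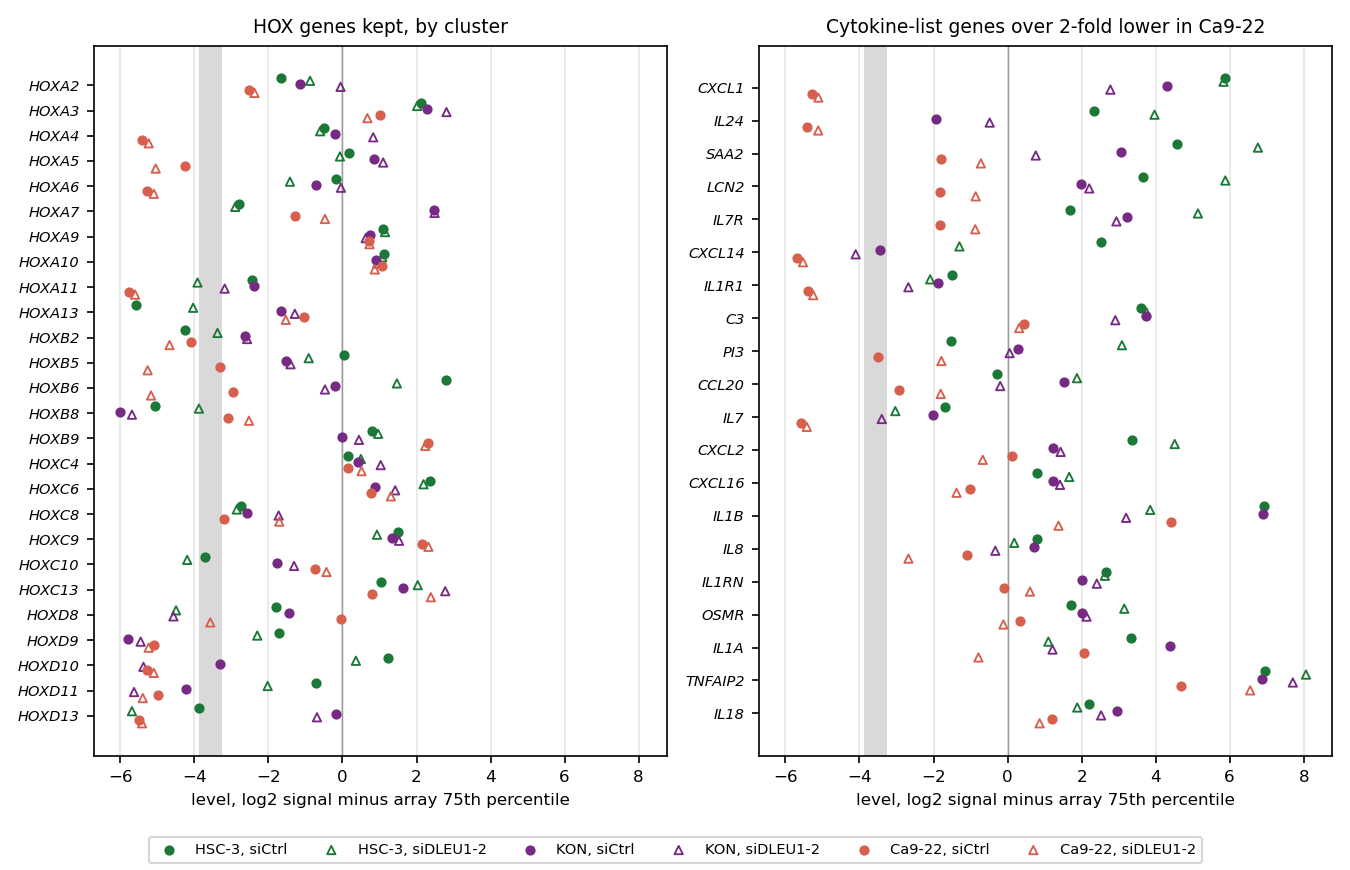
Levels per array (log2 signal minus the 75th percentile of the array) of the 26 HOX genes kept, ordered by cluster (left), and of the 20 genes of the cytokine list over 2-fold lower in Ca9-22 on both siRNAs (right). Colors give the line, filled circles siCtrl, open triangles siDLEU1-2, and the gray band the detection floors. HOXA4, HOXA5 and HOXA6 are below the band in Ca9-22 alone, while HOXA9 and HOXA10 lie close together in all lines.

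Among the lists drawn by gene function, cytokines, chemokines and their receptors had the lowest median, -2.03. Of 46 members kept, 39 were below 0, 8 (17.4%) were called lower and 0 higher, against 1.77% and 1.96% of all genes, and 20 (43.5%) were over 2-fold lower throughout with 0 over 2-fold higher, against 5.38% and 5.28%. Of all genes, 10154 of 18450 were below 0. CXCL1, a neutrophil chemokine, measured -5.29 and -5.11 in Ca9-22, 5.87 and 5.83 in HSC-3, and 4.30 and 2.78 in KON, and its second probe differed by -4.61 (adjusted p = 0.0977). IL1B, the central inflammatory interleukin, measured 4.40 and 1.38 in Ca9-22, 6.93 and 3.85 in HSC-3, and 6.90 and 3.20 in KON and was called lower (-2.33 ± 0.30, adjusted p = 0.0308). For IL1B each siDLEU1-2 array was below its siCtrl array, and Ca9-22 was lowest within each siRNA. IL1R1, the signaling receptor of interleukin 1, was not detected in Ca9-22 (at least 2.51-fold lower), and the antagonist IL1RN measured -0.10 and 0.61 in Ca9-22, 2.67 and 2.63 in HSC-3, and 2.0 and 2.41 in KON (-2.18 ± 0.32, adjusted p = 0.0413). C3, the central complement component, measured 0.43 and 0.31 in Ca9-22, 3.59 and 3.75 in HSC-3, and 3.75 and 2.91 in KON (-3.13 ± 0.33, adjusted p = 0.0190). CXCL16 and IL8 were also called (-2.48 ± 0.33, adjusted p = 0.0335 and -2.23 ± 0.32, adjusted p = 0.0380). IL7, the lymphoid growth factor, was detected on 3 of 4 other arrays and on neither Ca9-22 array. LCN2 (lipocalin 2), SAA2 (a serum amyloid) and IL7R differed by -4.78, -5.05 and -4.60 without passing the test (adjusted p = 0.103, 0.194 and 0.0568), and IL24 was not detected in Ca9-22 (at least 20.3-fold lower, adjusted p = 0.137).

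Interferon-induced genes had 0 of 51 members called in either direction by limma, with 4 (7.84%) over 2-fold lower throughout, near the 5.38% of all genes, and a median of -0.60. IFI27 measured 1.36 and 0.12 in Ca9-22, 7.40 and 7.0 in HSC-3, and 4.16 and 2.99 in KON, in an order of HSC-3 over KON over Ca9-22 (-4.65 ± 1.46, adjusted p = 0.165). BST2 (tetherin) and XAF1 differed by -2.64 and -4.78 (adjusted p = 0.0680 and 0.139), and CMPK2 was not detected in Ca9-22 (at least 10.8-fold lower, adjusted p = 0.108). Genes of MHC antigen presentation had 2 of 25 (8%) called higher and 0 lower, against 1.96% and 1.77% of all genes called, with a median of -0.24 that turned to 0.13 under quantile normalization. HLA-B and HLA-C of class I were bright in all lines, with differences of -0.24 and -0.27, and B2M, their shared light chain, differed by 0.54. Both calls were class II genes. HLA-DMA, a chaperone that loads peptide on class II molecules, measured 0.14 and 0.56 in Ca9-22, -1.75 and -2.06 in HSC-3, and -2.40 and -2.01 in KON (2.41 ± 0.30, adjusted p = 0.0294). HLA-DQB1 was detected in Ca9-22 alone, and all 4 of its probes were called higher. The probe with the highest mean over the 6 arrays measured 0.37 and 0.74 in Ca9-22 (at least 17.9-fold higher, adjusted p = 0.00822). HLA-DMB measured 1.16 and 2.01 in Ca9-22, -2.76 and -3.99 in HSC-3, and -6.17 and -5.00 in KON, detected on 1 of the 4 other arrays and not called (adjusted p = 0.0551), and HLA-DRB1 differed by 2.13 (adjusted p = 0.133). The class II invariant chain CD74 and the regulator CIITA were detected in HSC-3 alone. HLA genes vary between people in the bases that a probe matches, so these levels carry that uncertainty.

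Cancer-testis genes, which tumors may turn on although adult tissues other than the testis rarely use them, were mostly lower in Ca9-22, with calls in both directions. Of the 32 members kept, 28 were below 0, and 1 (3.12%) was called higher and 2 (6.25%) lower, against 1.96% and 1.77% of all genes. In it 2 (6.25%) were over 2-fold higher and 6 (18.8%) over 2-fold lower throughout, against 5.28% and 5.38% of all genes. The median was -1.87, and -1.09 under normexp. MAGEA1 measured -5.17 and -5.24 in Ca9-22, 1.93 and 1.86 in HSC-3, and 3.71 and 3.43 in KON. MAGEA4 measured -5.58 and -5.15 in Ca9-22, 3.21 and 3.22 in HSC-3, and 0.94 and 1.02 in KON. Both were detected on all 4 other arrays and neither Ca9-22 array, at least 68.5- and 44.2-fold lower (adjusted p = 0.0122 and 0.0272). KON alone carried several of them, as MAGEC2, MAGEA11 and DDX43 were detected in KON and at background in HSC-3 and Ca9-22. PAGE4 was the call in the other direction, detected in Ca9-22 alone (-1.58 and 0.62, at least 8.93-fold higher), and GAGE2B differed by 2.56 (adjusted p = 0.0759). The MAGE, GAGE and PAGE families hold close copies, so a probe may read several.

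Enzymes of NRF2 response and xenobiotic metabolism included 12 genes (22.6%) over 2-fold lower and 3 (5.66%) over 2-fold higher throughout in Ca9-22, against 5.38% and 5.28% of all genes. Of 53 kept, 4 (7.55%) were called lower and 1 (1.89%) higher, against 1.77% and 1.96%, with a median of -0.72. AKR1B10, an aldo-keto reductase that reduces retinal, measured -1.92 and 0.32 in Ca9-22, 4.70 and 6.91 in HSC-3, and 7.90 and 8.82 in KON (-7.88 ± 1.07, adjusted p = 0.0346). Its close paralog AKR1B15 gave like values (-7.80), which the same transcripts could produce on both probes. AKR1C1 and AKR1C3, steroid-reducing members of the same superfamily, differed by -3.99 and -4.24 without being called, with KON above HSC-3 on every array. CYP1B1, a cytochrome P450 of hydrocarbon and estrogen metabolism, measured -0.30 and -2.63 in Ca9-22, 2.81 and 4.0 in HSC-3, and 4.07 and 4.51 in KON (-5.31 ± 0.84, adjusted p = 0.0473). ABCC3, an efflux transporter, measured -1.56 and -0.91 in Ca9-22, 3.51 and 3.21 in HSC-3, and 2.64 and 1.87 in KON (-4.04 ± 0.57, adjusted p = 0.0375), and its second probe differed by -1.73 (adjusted p = 0.0544). GSTT1 was the call in the other direction, at 1.43 and 1.22 in Ca9-22 and at background on all 4 other arrays. ALDH1A3, which makes retinoic acid, differed by 2.57 and was not called (adjusted p = 0.107).

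Of 50 growth factor and receptor genes, 0 were called higher and 3 (6%) lower, against 1.77% of all genes called lower, with a median of -0.13. EREG, the EGF receptor ligand epiregulin, was not detected in Ca9-22 and measured 1.29 and 0.93 in HSC-3 and 0.51 and 1.62 in KON, at least 21.9-fold lower (adjusted p = 0.0113). VEGFC, a lymphatic growth factor, measured 3.32 and 2.63 in Ca9-22, 5.03 and 5.59 in HSC-3, and 5.61 and 5.14 in KON (-2.37 ± 0.35, adjusted p = 0.0409). EGFR, the main receptor kinase of squamous carcinoma, measured 4.33 and 2.92 in Ca9-22, 3.57 and 3.45 in HSC-3, and 2.74 and 1.22 in KON and was not called (0.88 ± 0.71, adjusted p = 0.536). Proliferation genes had a median of 0.03 over 45 genes, with 0 called higher and 1 (2.22%) lower, the latter near the 1.77% of all genes called lower. That call was CDC25B, a phosphatase that starts mitosis (2.10 and 2.56 in Ca9-22, 4.96 and 5.93 in HSC-3, and 4.18 and 4.95 in KON, -2.67 ± 0.43, adjusted p = 0.0479). Medians near 0 turned sign with the scaling of the arrays, as for proliferation (-0.06 when centered on the array median), adhesion (0.11 with quantile normalization) and growth factors (0.06 with the percentile of detected probes). Of 20 long noncoding RNAs, 1 (5%) was called higher, SOX2-OT, and 1 (5%) lower, against 1.96% and 1.77% of all genes called. The lower call was MIR31HG, the host transcript of miR-31 (-1.69 and -2.18 in Ca9-22, 2.14 and 0.95 in HSC-3, and 2.08 and 1.6 in KON, -3.62 ± 0.30, adjusted p = 0.0106).

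Differences of Ca9-22 were gathered at some chromosome positions, given here as descriptions without a test. Genes were placed in windows of 2 Mb by the hg19 positions of their probes, and 816 windows held at least 8 genes kept. Over all placed genes, 5.26% were over 2-fold higher and 5.39% over 2-fold lower. The window with the highest share lower was chromosome 9 from 4000001 to 6000000, where 11 of 16 genes (68.8%) were over 2-fold lower and all 16 were below 0, with a median of -2.27. SLC1A1, a glutamate transporter, was not detected in Ca9-22 and measured 0.10 and -0.43 in HSC-3 and -1.03 and -1.36 in KON (at least 6.44-fold lower, adjusted p = 0.0166). CDC37L1, a co-chaperone of HSP90, measured -0.58 and -1.97 in Ca9-22, 1.40 and -0.06 in HSC-3, and 1.30 and -0.37 in KON (-1.84 ± 0.25, adjusted p = 0.0334). These 2 were the calls in the window. JAK2, the cytokine receptor kinase, measured -2.73 and -2.89 in Ca9-22, 0.03 and -0.23 in HSC-3, and -0.64 and -1.15 in KON (-2.31 ± 0.39, adjusted p = 0.0547). CD274, which encodes the checkpoint ligand PD-L1, measured -2.27 and -2.34 in Ca9-22, 0.02 and 2.05 in HSC-3, and -0.25 and -0.15 in KON (-2.72 ± 0.71, adjusted p = 0.119). AK3, a mitochondrial adenylate kinase, measured 1.17 and 1.17 in Ca9-22, 4.71 and 4.33 in HSC-3, and 3.11 and 3.06 in KON (-2.63 ± 0.62, adjusted p = 0.0971). For all 5 of these genes both Ca9-22 arrays were below every HSC-3 and KON array of the same siRNA. Of other windows on the short arm, 4 of 9 genes were over 2-fold lower from 2000001 to 4000000 and from 14000001 to 16000000. From 20000001 to 22000000 it was 3 of 8. The windows between these are not given here, so a continuous low stretch is not shown. The window from 34000001 to 36000000 had 1 of 44. CDKN2A, the p16 gene on the same arm, measured 5.78 and 5.56 in Ca9-22, 6.15 and 6.13 in HSC-3, and -0.08 and 0.34 in KON, with Ca9-22 between the other lines.

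**Figure D5:**
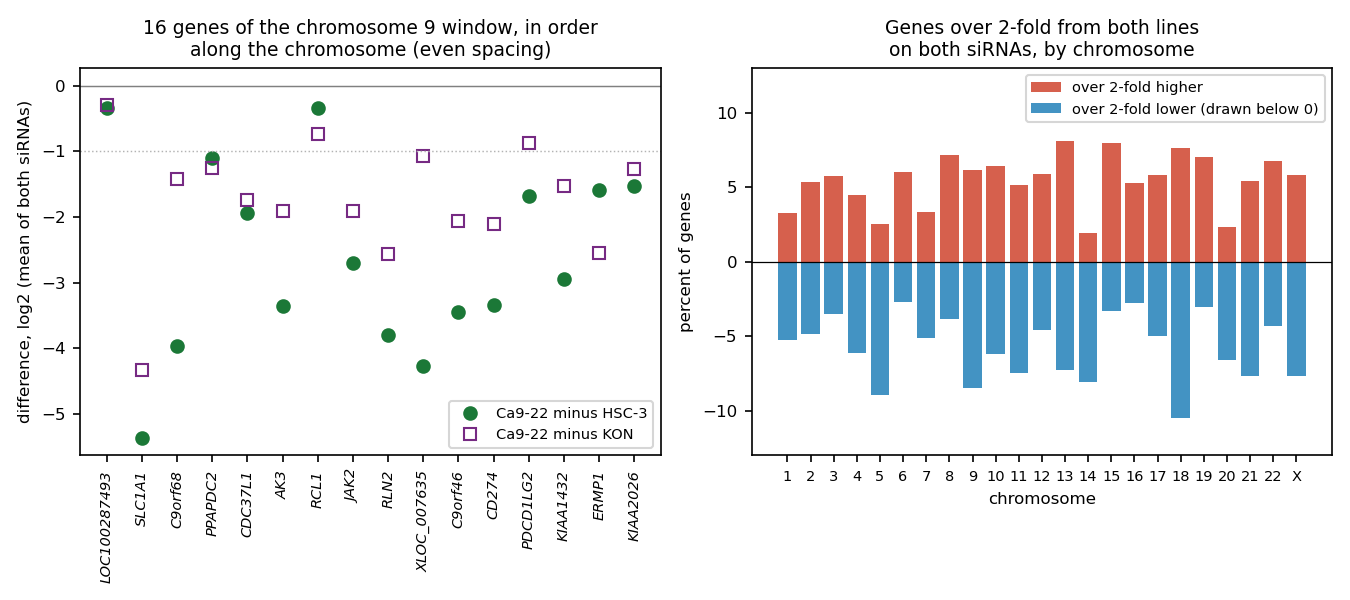
Left, difference of Ca9-22 from HSC-3 (circles) and from KON (squares), in log2 units averaged over both siRNAs, for the 16 genes of the chromosome 9 window in chromosomal order, with the dotted line at 2-fold lower. Right, percent of genes over 2-fold higher (up) or lower (down) than both lines on both siRNAs, by chromosome. All 32 points on the left are below 0, and chromosome 18 has the highest share lower (10.5%).

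The next windows with shares lower were chromosome X from 76000001 to 78000000 (5 of 9 genes, median -1.22) and chromosome 18 from 12000001 to 14000000 (9 of 18, median -1.36). The first held PGK1, a glycolytic kinase (5.69 and 5.81 in Ca9-22, 8.08 and 8.78 in HSC-3, and 7.28 and 7.61 in KON, -2.19 ± 0.46, adjusted p = 0.0810), with ATRX, MAGT1, COX7B and ATP7A at differences of -1.40 to -1.21. The second held TUBB6, PTPN2 and PSMG2, of which PTPN2 (-1.63 ± 0.25, adjusted p = 0.0451), a tyrosine phosphatase, and PSMG2 (-1.87 ± 0.24, adjusted p = 0.0312), a proteasome assembly chaperone, were called, and the second PTPN2 probe differed by -0.82 (adjusted p = 0.22). SEH1L and SPIRE1 of this window were called lower by another of their probes only (-2.60, adjusted p = 0.0147 and -1.77, adjusted p = 0.0358). So was MAGT1 of the window on chromosome X (-1.525, adjusted p = 0.0475). Higher shares were found on chromosome 11 from 94000001 to 96000000 (6 of 17 genes), with FUT4, KDM4D and SESN3 among them and 0 called by limma, and on chromosome 10 from 48000001 to 50000000 (5 of 14, 4 of them called). Those 4 were PTPN20B, whose near-identical copies the probe may not separate, and the transcripts XLOC_008809, CR604707 and XLOC_l2_001972, which carry no gene symbol. A window on chromosome 8 from 6000001 to 8000000 had 4 of 11 and holds the multi-copy FAM90A family, whose copies a probe may not separate. By whole chromosome, the lowest medians were those of chromosome 14 (-0.61, with 1.9% of 580 genes over 2-fold higher and 8.1% lower) and chromosome 5 (-0.49, with 2.52% and 8.94% of 794), and among chromosomes with at least 100 genes kept the highest was that of chromosome 15 (0.26, with 7.97% and 3.32% of 602). DNA copy number was not measured on these arrays.

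The difference of Ca9-22 was also compared between the siRNAs. A test of whether the difference of Ca9-22 depended on the siRNA called 0 of 24517 probes by limma, with 170 at an unadjusted p under 0.05 and a lowest adjusted p of 1. Some identity genes had unequal levels on the 2 Ca9-22 arrays and were apart from the other lines on both. AKR1B10 measured -1.92 with siCtrl and 0.32 with siDLEU1-2 in Ca9-22, against 4.70 for the lowest array of HSC-3 and KON, and CYP1B1 measured -0.30 and -2.63 against 2.81. With 1 array per line and siRNA, a line-specific response of a single gene cannot be told apart from the spread between arrays.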

How the data were processed

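HSC-3, KON and Ca9-22 cells each gave 1 array per siRNA, and the arrays were grouped by the cell line in the labels. The authors deposited the scanner output of Agilent Feature Extraction 10.7, in which each spot has an intensity after background subtraction and spatial detrending, without normalization between arrays. The deposited series table holds the same intensity, rounded (largest difference 0.497%), and served as an alternative. Control spots and outlier spots were left out, spots of a probe were averaged, and the 75th percentile of each array was subtracted from its log2 values. No spot was saturated. Of 50599 probes, 55 lacked a usable spot on some array, and the 24517 kept were well above background on at least 2 arrays. The number of arrays limits the precision.

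limma 3.58.1 (R 4.3.3) was fitted with siRNA and Ca9-22 as terms, and the Benjamini-Hochberg adjustment ran over the 24517 probes. The shared siRNA pairs arrays across lines, so siRNA is the block of this design. The labels do not say whether arrays came from separate cultures, and p-values measure the spread between these arrays only, with 1 line against 2. An exact permutation of the line labels could not give a p below 1 in 3. Over 2-fold means that all 4 same-siRNA differences passed 2-fold. A group dim on all its arrays gets a bound from the dimmest probe well above background on each array. For a gene with several probes, the one with the highest mean stands in lists.

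Named genes are the 15 called with the largest difference in each direction, up to 6 called members of each list, the cell type markers, the genes of the named windows and DLEU1. XIST, genes of chromosome Y and some other genes are not reported here. List members outside this rule, and all those named as not called, were chosen after their values were seen. The members and lists were chosen with earlier results of these data known, and the promoter count and the summary by chromosome were added after seeing the data. Of 36337 gene names in the files, 20446 matched the RefSeq table of GRCh38.p14, used for names and promoters only, and probe positions are on hg19. The fit was tested on simulated data. Other normalizations, filters, blocks and sets of arrays were tried, with their effect given after the report. The paper names GeneSpring GX, and its normalization is not given in the sources used here.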

Additional observations from a re-analysis of the deposited data

How the results depend on the processing

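Each array was also normalized, filtered and fitted in other ways. The calls (476 higher, 438 lower) stayed within 1.5 times under quantile normalization, both other centerings, normexp, the series table, no filter, dim values raised to the floor, probes averaged per gene and the adjusted methods' t-test, but not all were the same probes. Of the 476 and 438, 270 and 278 were shared under normexp, 288 and 267 with the t-test, 369 and 314 with the floor, 398 and 348 without a filter, and 458 and 401 under quantile normalization. Without the replicate block, that is without siRNA in the model, 585 were called higher and 589 lower, of which 429 and 390 were shared. They moved to 30 and 45 with probes detected on all arrays, 10 and 20 with cell line as a random block, and 0 and 0 with line means, with siCtrl arrays only and with siDLEU1-2 arrays only, fits with 1 residual degree of freedom (unadjusted p under 0.05 for 761 and 690, 850 and 761, and 739 and 672). Cell line as a term with 3 levels gave 3574 and 4792, leaving out HSC-3 gave 2862 and 3620, leaving out KON gave 2934 and 3226, and the methods' t-test before adjustment 2036 and 2999. In these the difference between HSC-3 and KON no longer counts, or counts without adjustment. Leaving out each array in turn gave 0 to 210 higher and 0 to 163 lower. The probes over 2-fold on both siRNAs (1273 higher, 1349 lower) became 557 and 656 under normexp, which raises dim values by an offset of 50, 463 and 694 with probes detected on all arrays, 700 and 628 at 3-fold, 1987 and 2153 on siCtrl arrays only, 1944 and 2141 on siDLEU1-2 arrays only, 2733 and 3373 without HSC-3, and 3052 and 3264 without KON. Leaving out each array in turn gave 1486 to 1987 and 1611 to 2153. The interaction gave 0 calls by limma under all 4 alternatives, with 39 to 1276 probes at an unadjusted p under 0.05.

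Of 81 named calls, none changed direction under any alternative. By limma, 62 were called under normexp and 63 without a filter, 15 with the random block, and 31 to 48 without 1 array of HSC-3 or KON. Calls of HOXA6, HOXA11, PKP1, IGFBP3, MAGEA4, PAGE4, COL6A2, IL1R1, IL7, ADAMTS4, TBX4, KRT6B, SLC1A1 and SOX2-OT were among those lost under normexp. Genes dim in 1 group have only a bound, which the detection floor sets.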

Other observations

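Some genes of immune and pigment cells were measured in these epithelial lines, and their levels are given as values. CD14, a coreceptor for lipopolysaccharide, measured -2.29 and -1.70 in Ca9-22, 5.58 and 6.01 in HSC-3, and 0.39 and 0.90 in KON, so that HSC-3 was highest and Ca9-22 lowest (-5.21 ± 2.04, adjusted p = 0.232). CSF1R was well above background on all 6 arrays, with means of 0.88 in Ca9-22 and 0.87 in the others. PMEL, a melanosome protein, measured 0.31 and 1.58 in Ca9-22, -0.49 and -0.44 in HSC-3, and -2.64 and -2.75 in KON, with Ca9-22 highest on each siRNA (2.53 ± 0.96, adjusted p = 0.220). Of the other pigment cell markers, DCT was well above background on 4 arrays, both Ca9-22 arrays among them (means of -2.78 in Ca9-22 and -3.43 in the others), and MLANA and TYR on at most 1 array by any probe.

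At 7p11 the neighbors of EGFR included LANCL2 (-2.13 and -2.44 in Ca9-22, -5.47 and -5.46 in HSC-3, and -3.65 and -4.22 in KON) and SEC61G (6.42 and 6.66 in Ca9-22, 6.0 and 6.28 in HSC-3, and 5.04 and 5.34 in KON), of which the first was detected in Ca9-22 alone (at least 2.47-fold higher) and the second differed by 0.88, neither called (adjusted p = 0.128 and 0.325). Integrin subunits went both ways, with ITGB2, the leukocyte integrin beta chain, at -4.34 and -3.01 in Ca9-22, 2.0 and 3.14 in HSC-3, and -0.39 and 0.81 in KON and ITGB8 at -0.39 and 1.16 in Ca9-22, -1.69 and -0.94 in HSC-3, and -2.84 and -1.47 in KON (differences -5.07 ± 0.96, adjusted p = 0.0656 and 2.12 ± 0.43, adjusted p = 0.0761).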
